A study of Mus musculus with 9 samples.

Results

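The genes examined are 9 genes of myelin and of the mature oligodendrocyte, namely Mbp, Mog, Mag, Mobp, Cnp, Cldn11, Ugt8a, Mal and Ermn, out of 19505 named genes on the array. They were taken by gene symbol, and each has 1 probe set. Hippocampal RNA came from male mice, of the strain C57BL6 in the labels and C57BL/6NCrSlc in the methods, and was hybridised to Affymetrix Mouse Clariom S arrays, 1 array per mouse and 3 mice in each of 3 groups. The p1 group (labelled Young) holds mice 7, 19 and 20, which had normal cognitive function at 11 weeks of age by the study's methods. The p2 group (labelled Old) holds mice 3, 8 and 18, adults of 47 weeks with normal cognition, and the p3 group (labelled Old with the suffix D, read here as decline) holds mice 2, 6 and 11, adults of 47 weeks whose cognitive function had declined. By the study's account, p2 and p3 mice were picked as the 3 best and the 3 poorest adults in a ranking of Y-maze and open field scores, so both groups are extremes of 1 cohort. All values are on the log2 scale of the authors' normalization, where a difference of 1 is a doubling of signal.

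Oligodendrocytes wrap axons in myelin, a stack of membrane rich in cholesterol and galactolipid whose layers are held together by a small set of abundant proteins. Myelin speeds conduction and is still being laid down in the forebrain of young adult mice, and the hippocampus carries it in the alveus, the fimbria and the layers crossed by input fibres. Precursor cells that express Pdgfra pass through a short Gpr17-positive stage before they make these proteins.

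In the p2 columns, 15915 of the 22206 deposited values per mouse (71.7%) are no measurements. Sorted by size, they lie on a straight line by row number. They carry more than 2 decimals, and they were dropped. The rows are ordered by chromosome, and the measured block of 6291 probe sets ends within chromosome 5. Cldn11 and Ugt8a on chromosome 3 and Mal and Ermn on chromosome 2 fall inside it and were measured in all 9 mice. Mbp, Mog, Mag, Mobp and Cnp fall outside it, so that these 5 genes have values in p1 and p3 only. The median of all log2 values in a p1 or p3 array was 6.62 to 6.71.

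The labelled tissue carried its markers. Prox1 of dentate granule cells had a mean log2 value of 12.48 in p1 and 12.04 in p3, and Snap25 of neurons 18.31 and 18.37. Markers of tissue beside the hippocampus were high in single mice. All 16 listed choroid plexus genes were higher in mouse 19 of p1 and mouse 11 of p3 than in the other 4 p1 and p3 mice. The log2 of their summed signal was 19.17 and 19.29 in this pair, against 10.91 to 14.74. Ttr, the transthyretin of choroid plexus epithelium, was at 12.92, 19.05 and 14.67 in p1 and at 9.74, 10.41 and 19.19 in p3. In p2, where 4 of the 16 were measured, their mean deviation was -1.62 to 0.26, against 3.9 and 3.75 in mice 19 and 11. Thalamus genes summed to 16.74 in mouse 11 of p3, against 13.28 to 14.62 in the other p1 and p3 animals, and among these 6 mice all 14 were highest there. Of the 6 thalamus genes measured in p2 the mean deviation was -0.25 to 0.24 in the p2 mice and 1.68 in mouse 11. Lhx9 of this list was called higher in p2 than in p1 (0.82, standard error 0.19, adjusted p = 0.999 from limma), with and without any 1 mouse. Ntng1 was called higher in p3 than in p1 (1.2, standard error 0.42, adjusted p = 0.860 from limma), but not without mouse 11 (0.74). Both thalamus and choroid plexus are outside the hippocampus, and the calls below are therefore also given without mice 19 and 11.

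Promoter sequences of 4 of the genes are shown because these genes stand at the ends of the differences described below. Cldn11 had the largest difference in p2, Cnp the smallest p between p3 and p1, and Ermn and Mobp had the higher mean in p3. The sequences are from RefSeq (GRCm38.p6) and cover 250 bases before to 50 bases after the start of the gene. Capitals mark ACAAAG, a core bound by SOX factors such as SOX10, and CTGGCAC or CTGGTAC, letters bound by MYRF, each on either strand.
Cldn11 (chr3:31149670-31149969, plus strand): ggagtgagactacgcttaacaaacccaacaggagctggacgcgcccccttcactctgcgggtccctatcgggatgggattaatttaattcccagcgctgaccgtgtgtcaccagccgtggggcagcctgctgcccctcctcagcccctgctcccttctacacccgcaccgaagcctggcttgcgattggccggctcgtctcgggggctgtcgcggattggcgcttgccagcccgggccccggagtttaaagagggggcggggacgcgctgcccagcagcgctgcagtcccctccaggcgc
Cnp (chr11:100574689-100574988, plus strand): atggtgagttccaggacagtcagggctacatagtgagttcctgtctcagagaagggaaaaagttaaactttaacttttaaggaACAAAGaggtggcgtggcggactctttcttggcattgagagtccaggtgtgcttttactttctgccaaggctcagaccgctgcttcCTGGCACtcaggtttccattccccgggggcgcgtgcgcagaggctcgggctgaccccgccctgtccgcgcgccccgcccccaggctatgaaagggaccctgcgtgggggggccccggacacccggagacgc
Ermn (chr2:58052815-58053114, minus strand): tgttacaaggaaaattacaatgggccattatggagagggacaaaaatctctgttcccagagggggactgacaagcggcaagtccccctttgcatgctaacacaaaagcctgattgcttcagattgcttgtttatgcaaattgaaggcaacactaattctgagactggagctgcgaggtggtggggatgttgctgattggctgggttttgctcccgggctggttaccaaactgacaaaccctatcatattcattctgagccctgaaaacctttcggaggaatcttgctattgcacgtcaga
Mobp (chr9:120149492-120149791, plus strand): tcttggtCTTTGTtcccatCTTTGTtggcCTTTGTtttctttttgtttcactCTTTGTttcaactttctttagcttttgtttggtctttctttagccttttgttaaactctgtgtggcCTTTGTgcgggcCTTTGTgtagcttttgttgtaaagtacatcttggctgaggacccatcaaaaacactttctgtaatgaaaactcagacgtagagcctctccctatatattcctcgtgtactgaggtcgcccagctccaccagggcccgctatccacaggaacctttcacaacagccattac
Cnp holds 1 ACAAAG and 1 CTGGCAC, and Mobp holds 6 copies of CTTTGT, the other strand of ACAAAG. The Cldn11 and Ermn windows hold none of these letters. Over the 8 genes searched, Mbp not being among them, ACAAAG was found in 3 and a MYRF sequence in 3, against 18.7% and 7.1% of all 32851 promoters of the same length. The E-box CAGCTG was found in 0 of the 8 and in 16.3% of all promoters, and matches of different motifs did not overlap. A gene was counted where any of its windows held the letters, whereas these percentages are shares of single promoters. Mog and Mag held the remaining matches. For Mag they lay in 2 of its 3 windows, which overlap and hold the same sites.

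The compact myelin proteins were compared between p3 and p1 first, which asks how the genes differ between adults with cognitive decline and young mice. Mbp encodes myelin basic protein, which seals the cytoplasmic faces of the membrane. It measured 17.78, 17.82 and 17.38 in mice 7, 19 and 20 of p1, and 17.34, 17.60 and 17.75 in mice 2, 6 and 11 of p3. The groups overlapped over nearly their whole range, and the difference was -0.10 (standard error 0.18, 95% confidence interval -0.52 to 0.32). Mobp, a small basic protein of the same faces, was at 14.72, 14.81 and 13.99 in p1 and at 14.47, 14.69 and 14.85 in p3. Its p1 mouse 20 lay below all other mice, and the difference was 0.16 (standard error 0.24). Mal, a raft proteolipid of compact myelin, was at 15.03, 15.09 and 14.58 in p1 and at 14.40, 14.71 and 14.79 in p3, with a difference of -0.27 (standard error 0.18).

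**Figure D1:**
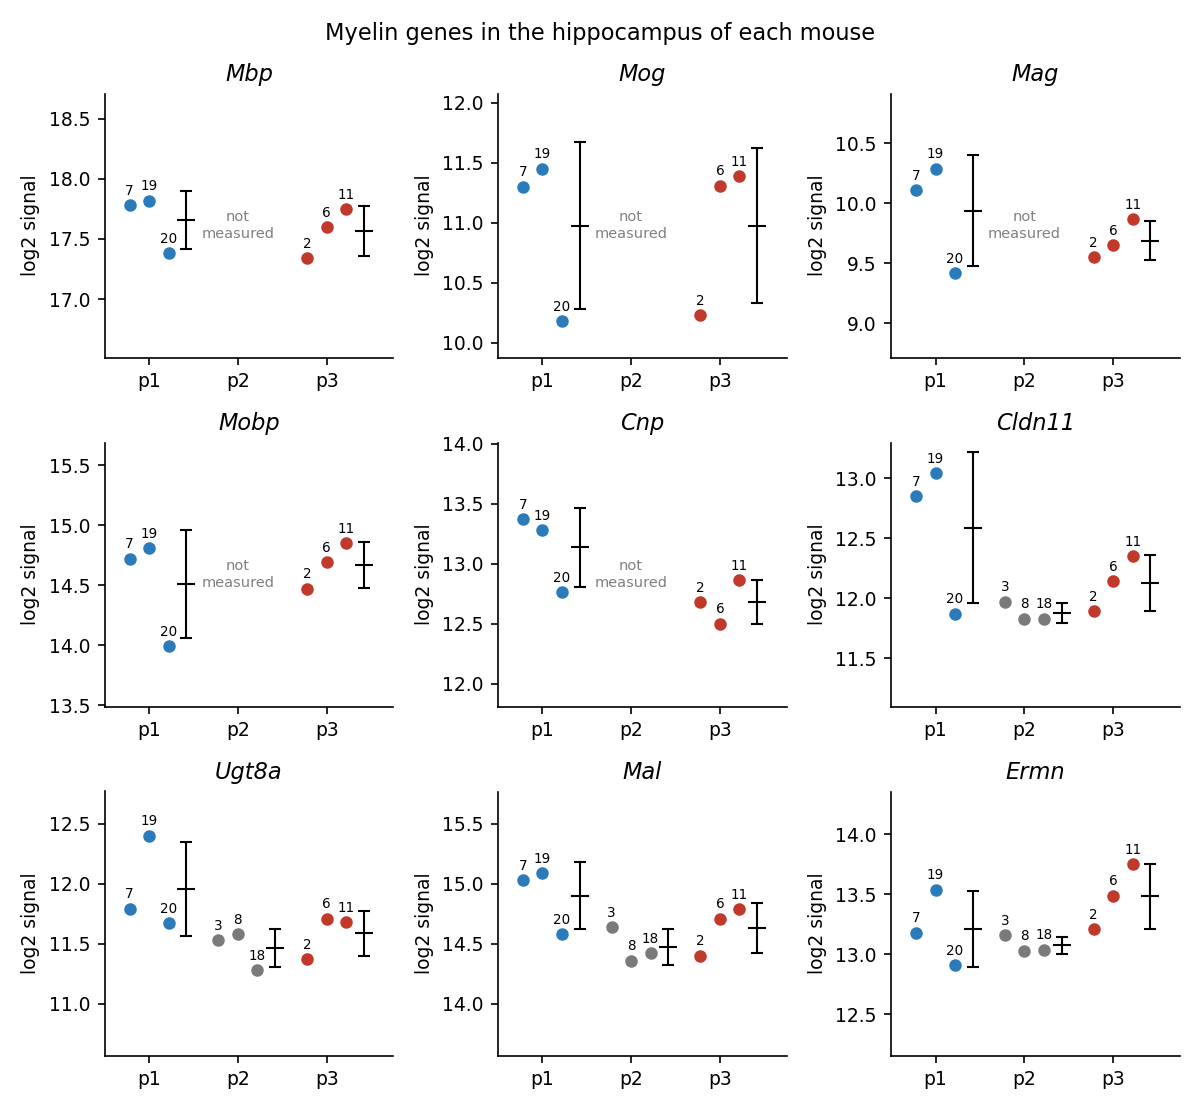
Log2 signal (y axis, the same span in every panel) of the 9 myelin genes in each mouse, by group (x axis). Points are mice with their number, and the bar beside them is the mean ± SD of 3 mice. In the 5 genes marked as not measured, p2 has no values, and p1 mouse 20 lies below p1 mice 7 and 19 in all 9 panels.

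The adhesion proteins of the myelin surface had like or lower means in p3. Mog, an immunoglobulin protein of the outermost lamella, was at 11.30, 11.45 and 10.18 in p1 and at 10.23, 11.31 and 11.39 in p3. One mouse in each group, p1 mouse 20 and p3 mouse 2, lay about 1 below the others, the group means were 10.98 and 10.98, and the interval of the difference ran from -0.93 to 0.93. Mag, the myelin-associated glycoprotein of the layer next to the axon, was at 10.11, 10.29 and 9.42 in p1 and at 9.55, 9.65 and 9.87 in p3. Its difference was -0.25 (standard error 0.23), and p1 mouse 20 was again the lowest.

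The proteins of the cytoplasmic channels, the junctions and lipid synthesis had lower means in p3. Cnp encodes the phosphodiesterase that keeps the channels of myelin open. It was at 13.37, 13.28 and 12.76 in p1 and at 12.68, 12.50 and 12.86 in p3, so that only p3 mouse 11 reached above p1 mouse 20. The difference was -0.46 (standard error 0.20), with an unadjusted p = 0.0498 and an adjusted p = 0.860 from limma. Cldn11, the claudin that forms the tight junctions between myelin layers, was at 12.85, 13.04 and 11.87 in p1 and at 11.89, 12.14 and 12.35 in p3 (difference -0.46, standard error 0.27). Ugt8a, the enzyme that makes galactosylceramide, was at 11.79, 12.40 and 11.67 in p1 and at 11.37, 11.71 and 11.68 in p3 (difference -0.37, standard error 0.20). Ermn encodes ermin, a cytoskeletal protein of late oligodendrocyte maturation, and had the higher mean in p3. It was at 13.18, 13.54 and 12.91 in p1 and at 13.21, 13.49 and 13.75 in p3 (difference 0.27, standard error 0.19).

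The study counted a gene as changed where its fold exceeded 1.5 and its unadjusted p, from a one-way analysis of variance, was under 0.05. These limits were applied here to the p of limma, which moderates the variance of each gene, and a gene past both is said to be called. None of the 9 genes was called between p3 and p1, while 1.70% of all 22206 probe sets were (0.941% higher and 0.757% lower in p3). The p1 and p3 mice overlapped in all 9, while they did not in 10.4% of probe sets. The median difference of the 9 was -0.25, beside 0.00 over all probe sets, with 6 genes on the lower side, 2 on the higher and Mog equal. Leaving out 1 mouse moved the median from -0.43 to -0.07, the latter without p1 mouse 19, and the difference of Mog from -0.40 to 0.37. An unadjusted p under 0.05 was found in 1 of the 9 and in 5.71% of probe sets. After adjustment limma left 0 probe sets (0.00%) under 0.05 in this and in the other comparisons. The count rested on p1 mouse 20. Without it the count of genes past the threshold was 2, with Cnp at -0.64 and Cldn11 at -0.82, and Mobp turned to -0.09. Without mice 19 and 11 the count was 0 and the median was -0.16.

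The comparison of p2 with p1 asks how normally performing adults differ from young mice, and it covers Cldn11, Ugt8a, Mal and Ermn. Cldn11 was at 11.97, 11.83 and 11.83 in p2 mice 3, 8 and 18, a range of 0.14 on the log2 scale, against 11.87 to 13.04 in p1. All p2 mice lay near p1 mouse 20 and far below p1 mice 7 and 19. Cldn11 fell by 0.71 in p2 (standard error 0.27, 95% confidence interval -1.31 to -0.11, unadjusted p = 0.0245 and adjusted p = 0.999 from limma). It was the 1 gene of the 4 called by limma, as were 1.29% of 6291 probe sets, 0.572% on the lower side. In the one-way model without moderation, the kind of test the array methods name, its p was 0.0667 and none of the 4 genes was called. Ugt8a was at 11.53, 11.58 and 11.28 in p2, all below the 3 p1 mice. Its difference was -0.49 (standard error 0.20), short of the fold. Groups without overlap were found in 8.71% of probe sets, and in 4.31% with p2 as the lower one.

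Mal was at 14.64, 14.36 and 14.42 in p2, with p2 mouse 3 above p1 mouse 20 and a difference of -0.43 (standard error 0.18). Ermn was at 13.16, 13.03 and 13.04, within the range of the p1 mice (difference -0.13, standard error 0.19). The median over the 4 genes was -0.46, beside -0.01 over the 6291 probe sets, and 3 of the 4 had an unadjusted p under 0.05 against 4.26% of probe sets. Cldn11 was no longer called when mouse 7 (-0.58) or mouse 19 (-0.48) was taken from p1, or mouse 8 (-0.69) or mouse 18 (-0.69) from p2, nor in the methods' t-test. Without p1 mouse 20 Cldn11 was at -1.07, and Ugt8a (-0.63) and Mal (-0.59) passed the threshold as well.

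**Figure D2:**
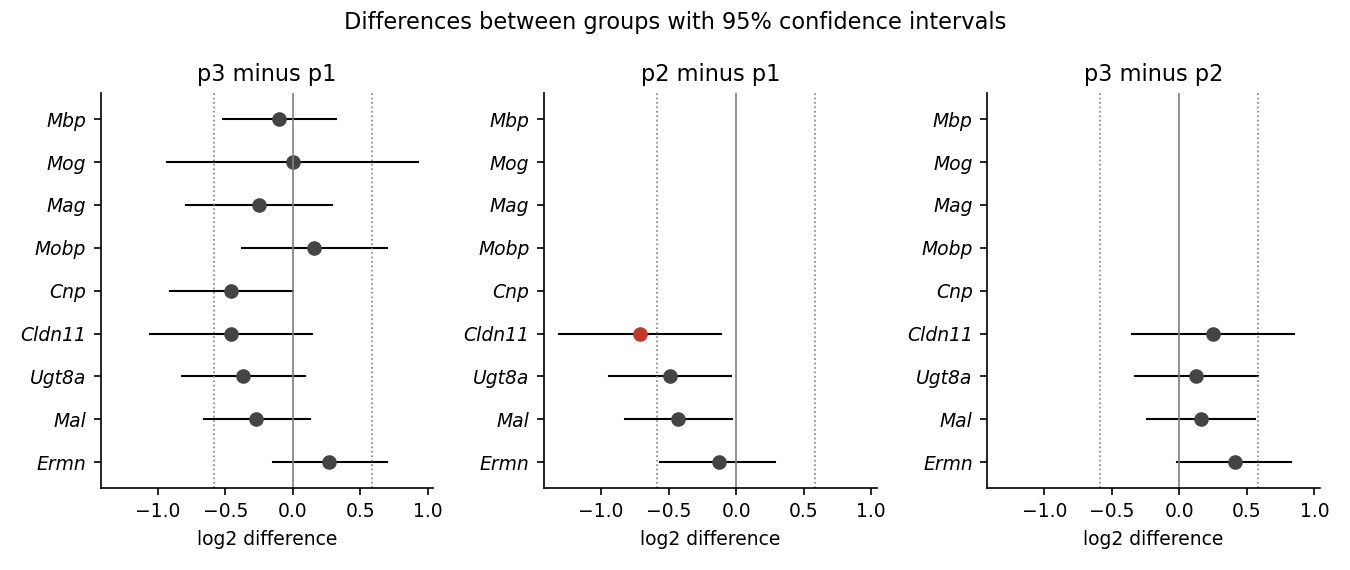
Differences of the 9 genes between group means (x axis, log2) with 95% confidence intervals from limma as bars, for p3 minus p1, p2 minus p1 and p3 minus p2. Dotted lines mark a fold of 1.5. The red point is Cldn11 in p2 minus p1 (-0.71), the 1 difference called by limma, and genes with no point were not measured in p2.

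Between p3 and p2, the comparison of adults with and without cognitive decline, the 4 genes all had the higher mean in p3. The difference was 0.41 in Ermn (standard error 0.19, 95% confidence interval -0.02 to 0.83), 0.25 in Cldn11 (standard error 0.27), 0.16 in Mal (standard error 0.18) and 0.12 in Ugt8a (standard error 0.20). All 3 p3 mice were above all 3 p2 mice in Ermn, with p3 mouse 2 at 13.21 and p2 mouse 3 at 13.16, and such separation with the higher mean in p3 was found in 5.71% of probe sets. The groups overlapped in the other 3 genes. None of the 4 was called, while 1.54% of 6291 probe sets were. None had an unadjusted p under 0.05, which 5.33% of probe sets had, and the smallest adjusted p was 0.853 from limma. The median was 0.21, beside 0.01 over all probe sets, and 0.11 without mice 19 and 11. This comparison and that of p2 with p1 share the p2 mice, and both comparisons with p1 share the p1 mice.

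The genes varied together from mouse to mouse, also within a group. Averaged over the 9 genes, p1 mice 7, 19 and 20 stood 0.22, 0.40 and -0.38 from the mean of the 6 p1 and p3 mice, and p3 mice 2, 6 and 11 stood -0.33, -0.04 and 0.13 from it. Mouse 19 was the highest of the 6 in 6 genes and mouse 20 the lowest in 5. Within p1 the highest mouse exceeded the lowest by a fold of 2.41 in Mog, 2.25 in Cldn11 and 1.83 in Mag, and by 1.36 in Mbp. The SD among p1 mice was 0.24 to 0.69 over the genes, with a median of 0.39, beside 0.14 over all probe sets with a mean log2 value of at least 10. It was larger than the SD among p3 mice in all 9 genes (median 0.21), while the p3 SD was the smaller in 49.7% of probe sets. Over the probe sets with a mean of at least 10 the median SD was 0.15 in p3 and 0.12 in p2. Mag, with means of 9.94 in p1 and 9.69 in p3, lies below that level. The 9 genes are not 9 separate observations here, since they varied together and p1 mouse 20 was the lowest of p1 in each. In p2 the SD of the 4 measured genes was 0.07 to 0.16 (median 0.11), below that of p1 in all 4, as in 54.3% of probe sets.

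Across the 6 mice, the Pearson correlation of a gene with the mean of the other 8 was 0.97 for Mbp, 0.96 for Mag, 0.94 for Cldn11, 0.93 for Mal and 0.87 for Mog. It was lower for Mobp (0.79), Ugt8a (0.74), Cnp (0.67) and Ermn (0.56). After the group means were subtracted, Ermn stood at 0.92 and Mobp at 0.98. Over the 36 pairs of genes the median r was 0.78, between 0.02 and 0.99. Over 11084 named genes with a mean log2 value of at least 6, the median r with the mean of the 9 was -0.03, and 2.228% had an r of 0.8 or more. These points share arrays and dissections, so the values are a description over 6 mice. In tissue RNA, fewer oligodendrocytes and less myelin RNA per oligodendrocyte cannot be told apart.

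The genes outside the 9 whose pattern was closest were Fam107b (r = 0.994), Htr5b, a serotonin receptor gene (0.986), Neu3, a sialidase of gangliosides (0.983), Zfp994 (0.977), Mterf1b and Clu, the clusterin gene (both 0.975). Fa2h, which makes the 2-hydroxylated fatty acids of myelin galactolipid, followed with 0.972. It was at 10.50, 10.49 and 9.55 in p1 and at 9.62, 9.90 and 10.14 in p3. Unc5b, a netrin receptor (0.969), Lsm14a (0.967), Bmper (0.966), Srpr (0.961), Cmtm5 (0.958), Lhfpl5 (0.957), Pard3 (0.952) and Cmtr2 (0.951) completed the 15 nearest. Fa2h and Cmtm5 were the 2 of these that stand on a list of 33 other myelin and mature oligodendrocyte genes. On that list 16 genes had an r of at least 0.8, with a median of 0.78. The 15 nearest genes are the top of a ranking of 11084 genes over only 6 mice. Of these 11084 genes, 0.541% had an r of at least 0.9. How many genes would reach such values by chance was not computed.

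Because the genes varied together, each was also set against the mean of the others in the same mouse. Ermn stood higher against the other 8 genes in every p3 mouse (0.47, 0.45 and 0.56) than in every p1 mouse (-0.19, 0.02 and 0.18), a shift of 0.49. Mobp stood at 1.89, 1.80 and 1.80 in p3 and at 1.54, 1.45 and 1.39 in p1, a shift of 0.37. Cldn11 stood at -1.02, -1.07 and -1.02 in p3 and at -0.56, -0.55 and -0.99 in p1, a shift of -0.33. These 3 of the 9 genes had p1 and p3 mice that did not overlap on this scale. When the mean deviation of the 9 was subtracted from 19505 named genes, 3.96% had no overlap. That share is not a like measure for the 9, which follow the mean of the others (r of 0.56 to 0.97). Over 11084 other named genes the median r was -0.03. A shift on this scale also holds the change of the other genes, and Ermn itself differed by 0.27. Cnp was shifted by -0.33 with overlapping groups, and Mbp (0.07) and Mag (-0.10) were shifted least.

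The p2 mice were placed by the 4 genes measured in all groups, beside the same p1 and p3 mice. Against the mean of Cldn11, Ugt8a and Mal, Ermn was at 0.45, 0.44 and 0.53 in p2, above all 3 p1 mice (-0.04, 0.03 and 0.20) and below all 3 p3 mice (0.66, 0.64 and 0.81). The share of all genes with such an order was not computed. From p1 to p2, Cldn11, Ugt8a and Mal differed by -0.71, -0.49 and -0.43, and Ermn itself by -0.13. Cldn11 against the other 3 was at -1.14, -1.16 and -1.08 in p2 and at -1.1, -1.16 and -1.06 in p3. The p1 mice were at -0.48, -0.64 and -1.18, so that p1 mouse 20 was again with the adults.

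**Figure D3:**
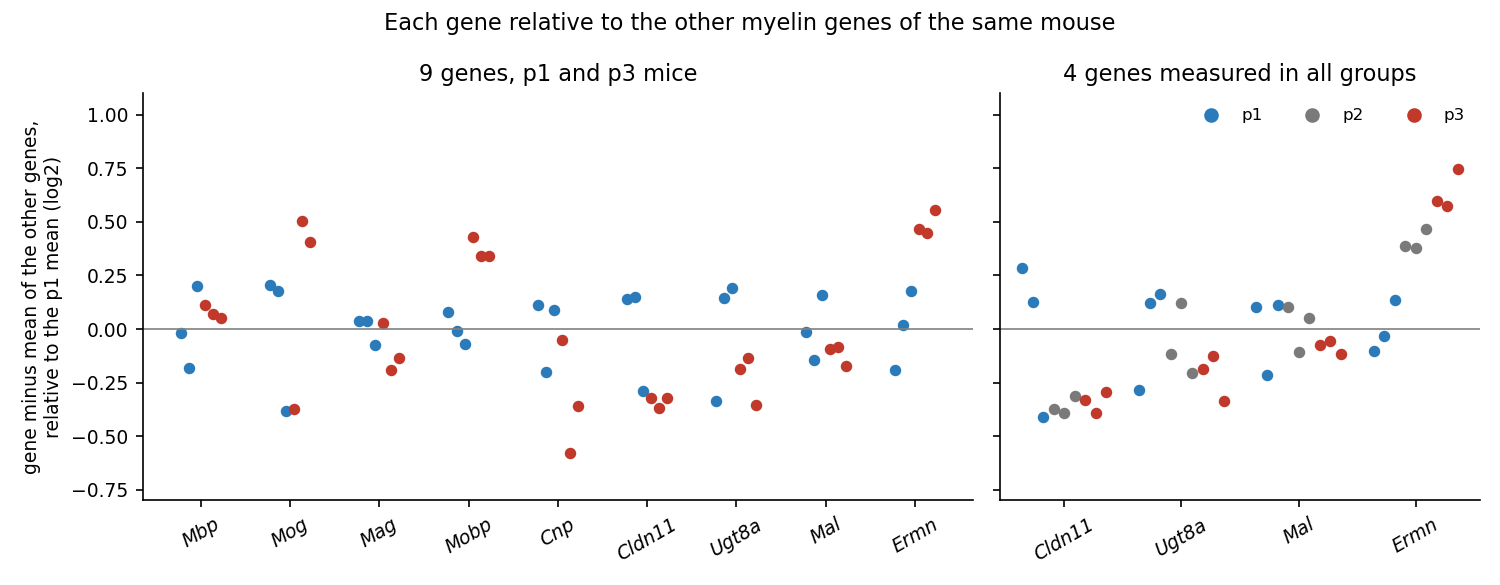
Each gene minus the mean of the other myelin genes in the same mouse (y axis, log2), drawn relative to its p1 mean, for 9 genes in 6 mice (left) and for the 4 genes measured in 9 mice (right). Points are mice coloured by group. Ermn lies above the p1 mice in p3 in the left panel and in p2 and p3 in the right one, and Mobp does so in p3.

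With the mean of the other genes as a covariate in limma, a setting added after the values were seen, the p3 minus p1 difference was 0.45 in Ermn (standard error 0.17, unadjusted p = 0.0316), 0.37 in Mobp (standard error 0.16, unadjusted p = 0.0458) and -0.38 in Cnp (standard error 0.18, unadjusted p = 0.0664). The adjusted p was 0.769 or more in each of the 9 genes, and none was called. In a fit with the mean of all 9 genes as the covariate, 6.32% of probe sets had an unadjusted p under 0.05 and 2.50% were called. For Ermn, with the other 3 genes measured in p2 as the covariate, the difference was 0.33 in p2 minus p1 (standard error 0.19). It was 0.26 in p3 minus p2 (standard error 0.14). None of the 4 genes was called in these comparisons or had an unadjusted p under 0.05. With the mean of all 4 as the covariate, 4.07% and 1.92% of probe sets were called and 5.79% and 4.59% had such a p.

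Other genes of the lineage were described from lists. In the one-way model without moderation, added for them after the values were seen, each gene called below was called as well, except Ptpro and Egr2. Of the thalamus genes above, Lhx9 was called in it and Ntng1 was not. Of the 33 other myelin genes, 1 was called higher and 1 lower in p3 than in p1. Over all probe sets, 0.941% were called higher and 0.757% lower. The median difference of the 33 genes was -0.06. Anln, an actin-binding protein of the oligodendrocyte cytoskeleton, rose from 7.90, 8.64 and 7.76 in p1 to 8.81, 8.83 and 9.07 in p3 (difference 0.80, standard error 0.24, adjusted p = 0.860 from limma). Gsn, the actin-severing protein gelsolin, fell from 8.72, 9.0 and 8.38 to 8.11, 7.62 and 7.95 (difference -0.81, standard error 0.19). Gsn was at 8.10, 8.23 and 8.14 in p2, below all p1 mice, though its difference of -0.54 was short of the fold. Neither call was lost when any 1 mouse was left out, or without mice 19 and 11 (Anln at 0.99 and Gsn at -0.69). In p2 against p1, 1 of the 10 measured genes was called lower, beside 0.572% of 6291 probe sets, and 0 higher. The called gene was Tspan2, a tetraspanin of myelin, which fell by 0.70 (standard error 0.22). Without p1 mouse 19, and without mice 19 and 11, it was at -0.48, short of the threshold. Between p3 and p2 none of the 10 was called, while 1.54% of 6291 probe sets were.

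Of 15 genes of oligodendrocyte precursors and differentiating oligodendrocytes, 3 were called lower and 0 higher in p3 than in p1, beside 0.757% of all probe sets called lower, and the median over the 15 was -0.05. Gpr17, a receptor of newly forming oligodendrocytes, was at 8.51, 8.17 and 7.89 in p1 and at 7.29, 7.26 and 7.37 in p3, and fell by 0.88 (standard error 0.18). Bmp4, a signal made by the same stage, was at 7.24, 7.10 and 7.23 in p1 and at 6.24, 6.47 and 6.83 in p3, and fell by 0.68 (standard error 0.18). Ptpro, a receptor tyrosine phosphatase, fell by 0.67 (standard error 0.25). Their adjusted p was 0.860 from limma. Gpr17 was called whichever mouse was left out, whereas Bmp4 was not without p3 mouse 2 (-0.54), and Ptpro was not without mouse 7 or mouse 19 of p1 or mouse 2 of p3 (-0.84 to -0.40 over the 6 mice). Without mice 19 and 11 all 3 were called (Gpr17 at -0.92, Bmp4 at -0.88 and Ptpro at -0.74). These 3 genes were not measured in p2, where 4 of the list were and none was called. Of 6291 probe sets, 1.29% were called between p2 and p1 and 1.54% between p3 and p2.

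Genes linked to oligodendrocytes of aged or injured white matter had the higher mean in p3 than in p1 in 7 of 10. So had 11192 of all 22206 probe sets. The other 3 had the lower mean, down to a difference of -0.13. Of the 10, 1 was called higher, beside 0.941% of all probe sets, and 0 lower. Il33, an alarmin held in oligodendrocyte nuclei, rose from 11.64, 11.82 and 11.23 in p1 to 11.94, 12.56 and 12.69 in p3 (difference 0.83, standard error 0.24) and was called whichever mouse was left out and without mice 19 and 11 (0.81). C4b, a complement gene, had a difference of 0.49 (standard error 0.17) and Apod, a lipid carrier, of 0.43 (standard error 0.18), with p1 and p3 mice that did not overlap but short of the fold. Their adjusted p was 0.860 from limma, and the median of the list was 0.16. Of 17 genes of cholesterol and myelin lipid synthesis none was called in any comparison. Over all probe sets, 1.70% were called between p3 and p1, 1.29% between p2 and p1 and 1.54% between p3 and p2. Of the 17 genes, Lss, lanosterol synthase, had the smallest p between p3 and p1 (difference 0.55, standard error 0.20). Of 13 genes of the node and paranode, where axon and myelin meet, none was called, and Nfasc, neurofascin, had a difference of -0.27 (standard error 0.14).

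None of the 11 oligodendrocyte transcription factors was called, while 1.70% of all probe sets were between p3 and p1. Olig2 was at 9.92, 9.71 and 9.34 in p1 and at 9.13, 10.35 and 10.02 in p3, and Myrf, the regulator that switches myelin genes on, at 9.68, 9.58 and 9.27 and at 9.35, 9.91 and 10.07. Within p1, mouse 20 was the lowest in 9 of the 11 genes, within p3 mouse 2 was the lowest in 7, and both held in 6. Sox10 was among the others, at 9.24, 9.27 and 9.24 in p1 and at 9.30, 9.08 and 9.80 in p3. No share over all genes was computed for these counts, and 1 of the 11 genes stood at only 3.09 to 3.83. The median deviation of the list was highest in p3 mouse 11 (0.38). It was 0.04 in p1 mouse 19, where the mean of the 9 myelin genes was highest. Tcf7l2 had the largest difference of this list (1.54, standard error 1.05), but it is also a thalamus gene, and it stood at 14.40 in mouse 11 of p3 against 9.64 to 10.07 elsewhere.

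Markers of other cells and tissues were read in the same mice. The mean deviation of 8 neuronal genes lay between -0.07 and 0.05 and that of 9 astrocyte genes between -0.14 and 0.08, a smaller range than the -0.38 to 0.40 of the myelin genes. The 16 choroid plexus genes stood at 2.85 in mouse 19 and 2.62 in mouse 11, against -1.62 to -1.07 in the other 4 mice. Both the myelin genes and the choroid plexus genes were highest in mouse 19 within p1 and in mouse 11 within p3. In p1 mouse 7 the choroid plexus genes stood at -1.29 and the myelin genes at 0.22. The 14 thalamus genes stood at 2.19 in mouse 11 and between -0.61 and -0.12 elsewhere. The 8 neocortex genes ranged from -0.30 in p1 mouse 19 to 0.36 in p1 mouse 20, the opposite order to the myelin genes in p1. In p3 mice 2, 6 and 11 they stood at -0.09, -0.02 and 0.17, the same order as the myelin genes. Their median deviation in mouse 11 was -0.25, however. Hippocampal principal neuron genes lay between -0.25 and 0.51, microglial genes between -0.23 and 0.11 and endothelial genes between -0.12 and 0.11. Of the Schwann cell list, which covers the myelin of peripheral nerve, Ncmap and Foxd3 were at 4.64 to 5.31 over the 6 mice, Cdh19 at 8.06 to 9.04, Sox10, which oligodendrocytes also express, at 9.08 to 9.80, Egr2 at 6.74 to 9.70 and Pmp22 at 11.15 to 12.30. Pmp22 was called higher in p3 (0.66, standard error 0.20) and Egr2, which is also an immediate early gene, lower (-1.34, standard error 0.54), both with an adjusted p = 0.860 from limma. Pmp22 was not called without mouse 20 of p1 or mouse 11 of p3 (lowest difference 0.52), nor without mice 19 and 11 (0.57). Egr2 was called in 1 of the 6 fits that left out a mouse (-1.97 to -0.71), namely without mouse 19, and without mice 19 and 11 (-2.07). The part of neighbouring tissue in the myelin values was not tested.

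**Figure D4:**
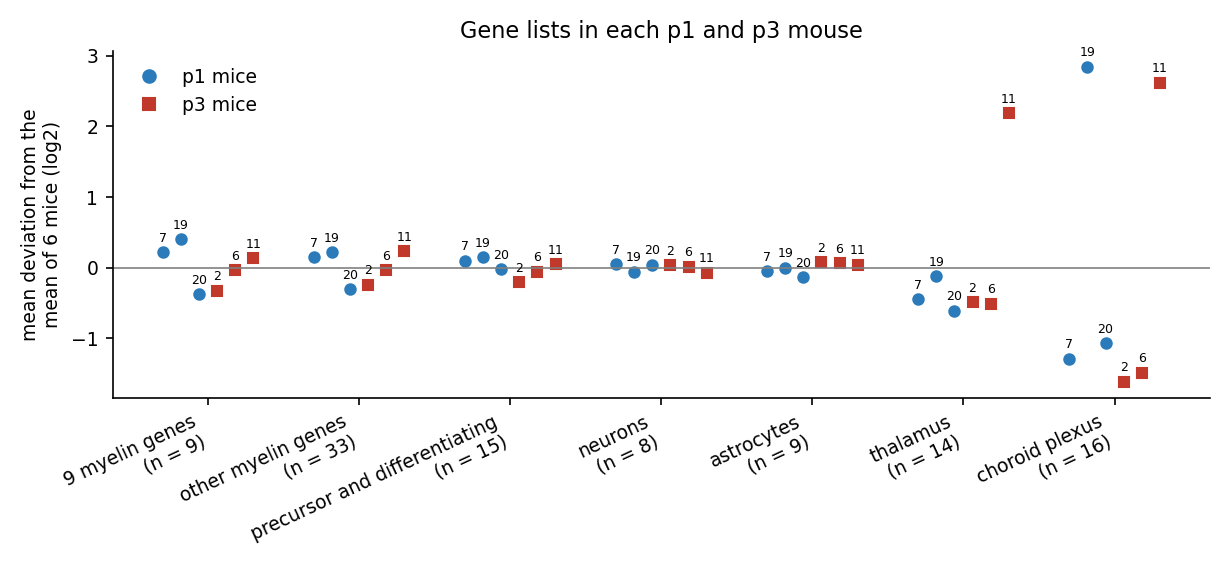
Mean deviation of the genes of each list from their mean over the 6 p1 and p3 mice (y axis, log2), with the number of genes under each list name. Points are mice with their number, blue circles for p1 and red squares for p3. The myelin genes run from -0.38 in p1 mouse 20 to 0.40 in p1 mouse 19, the choroid plexus genes are high in mice 19 and 11, and the thalamus genes are high in mouse 11.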

How the data were processed

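Clariom S arrays were read for 9 hippocampi. The authors normalized them in the Transcriptome Analysis Console, and the deposited values are log2 signals of probe sets. For the background correction, the probe summary and the genome build, nothing is given in the sources used here. Values of p2 with more than 2 decimals (15915 per mouse) were treated as missing. Sorted by size and set against row number, they lay at most 5.0e-10 from a straight line. The platform annotation gave 1 symbol to 19572 of 22206 probe sets, several to 0 and none to 2634, and the Entrez IDs of the 19572 were all found in the GRCm38.p6 gene table. Where a gene had more than 1 probe set, the brightest on average was used.

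A single model over all mice was fitted in limma 3.58.1 under R 4.3.3 (lmFit, eBayes). The prior had 4.22 degrees of freedom and the residual 6, or 4 for probe sets without p2. Benjamini-Hochberg adjustment took in every probe set that a comparison had. The fit was checked on simulated data. The array methods name a one-way analysis of variance in the Transcriptome Analysis Console. It was run here as an unmoderated one-way model, an alternative, as was the t-test of the general methods. The 9 genes and all lists were chosen with earlier results of these data known. Named are the 9 genes, list genes that were called or among the 4 smallest p of their list, and the 15 genes of highest correlation. Prox1, Snap25, Olig2, Myrf, Sox10, Ncmap, Foxd3 and Cdh19 were chosen after their values were seen. Each group has 3 arrays, which limits the precision. Alternatives were fits of the compared groups only, other variance models, array weights, quantile normalization, median centring, a filter at a mean log2 of 6, averaging a gene's probe sets, other folds and leaving out mice. Figures were drawn in matplotlib 3.10.9 (Python 3.11.15).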

Additional observations from a re-analysis of the deposited data

How the results depend on the processing

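The number of the 9 genes called by limma between p3 and p1 was 0 and was 1 at a fold over 1.2 (Cnp). It ranged from 0 to 2 when single mice were left out. Without single mice Mobp (0.16) ranged from -0.09, without p1 mouse 20, to 0.32, and Mbp (-0.10) from -0.24 to 0.01, without p3 mouse 2. Mbp was also at 0.01 with the other genes as a covariate, a setting added after seeing the data. Between p2 and p1 the number was 1 of 4 (Cldn11). It was 0 in the methods' t-test, 0 in the one-way model without moderation, 0 without mice 19 and 11, 0 at a fold over 2, 0 with the covariate and 3 at a fold over 1.2, and ranged from 0 to 3 without single mice. The median of the 4 genes was -0.46, and -0.14 with the covariate. Ermn (-0.13) ranged from -0.28 to 0.03, without p1 mouse 19, and was at 0.03 without mice 19 and 11 and at 0.33 with the covariate. Between p3 and p2 the number was 0 in every alternative, and with the covariate Cldn11 was at -0.10, Ugt8a at -0.08 and Mal at -0.02. The cause of these changes was not tested. In the settings that changed the normalization, the filter, the array weights or the mean of probe sets, no direction and no call of the 9 genes changed. No paired analysis was possible because the groups share no mouse numbers.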
